A study of Mus musculus with 6 samples.

Results

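The genes described here encode 10 proteins that write, remove or read methyl marks on RNA, and they were examined for WDR5 and H3K4me3 regions in mouse embryonic stem cells. The members are Mettl3, Mettl14, Wtap, Alkbh5, Fto, Ythdf1, Ythdf2, Ythdf3, Ythdc1 and Ythdc2, 10 of 21887 protein-coding genes in the mm10 RefSeq table. Every deposited peak inside a member or within 1 kb of its ends was taken, which gave 25 WDR5 regions in the wild-type line, 27 in the mutant line, and 65 and 48 H3K4me3 regions. The genes had been picked with these peak lists in view: the family was chosen by the folds of WDR5 regions along the gene bodies of several of its genes. Their folds are therefore given as a description, with no test. WDR5 regions of fold 5 or more were listed at 5 of the 10 genes (Mettl3, Alkbh5, Ythdf1, Ythdf2 and Ythdf3), and none at the other 5, so the name of the family covers genes without such regions too.

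The cells were embryonic stem cells with a GFP knock-in at Rx, kept in 2i+LIF. All of them were double knockout for Wdr5 and p53. One line had been given wild-type WDR5 back (the wild-type line) and the other WDR5S91KY191F, which has the changes S91K and Y191F (the mutant line), and the labels do not say whether a line is 1 clone or what drives the rescue construct. The embryonic stem cell genes Nanog, Sox2 and Zfp42 each had H3K4me3 in both lists, with highest folds from 2.62 to 3.97. An H3K4me3 region was listed at 76.4% of protein-coding genes in the wild-type line and 75.9% in the mutant line. The median highest fold over those genes was 10.6 and 10.5. Such presence alone does not show expression or cell type. Each line gave 1 WDR5, 1 H3K4me3 and 1 input library, of which the 4 antibody peak lists were used. With 1 library per antibody and line, values of the lines are set side by side without a test.

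N6-methyladenosine is the most abundant internal modification of messenger RNA. A nuclear complex places it, in which METTL3 is the catalytic subunit, METTL14 its RNA-binding partner and WTAP the adaptor that brings the pair to nuclear speckles. FTO and ALKBH5 are demethylases. Proteins with a YTH domain bind the mark: YTHDF1, YTHDF2 and YTHDF3 in the cytoplasm, YTHDC1 in the nucleus, and YTHDC2, an RNA helicase needed for meiosis. In embryonic stem cells the pathway is known for controlling how long transcripts of pluripotency genes last. WDR5 is a scaffold of the methyltransferase complexes that make H3K4me3, a histone mark found at promoters.

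In the wild-type line list 8 of the 10 genes had a WDR5 region, where 26.8% of protein-coding genes had one, and in the mutant line list also 8, where 30.7% had one. Both lists held a region for 7 members. Neither this count nor the next one, by −log10 q, was made over all protein-coding genes. Keeping only regions whose −log10 q reached 2 left 5 members in each list, since Ythdc1 and Ythdc2 in both lines, Mettl14 in the wild-type line and Fto in the mutant line held weaker regions only. At a fold enrichment of at least 5, the authors' value at the peak summit, the count was 5 in each list, the same 5 genes, where 0.882% and 1.01% of protein-coding genes had such a region. In both lists at once it was 5 of 10, against 0.626% of protein-coding genes. These percentages are background only, since the folds helped to choose the genes. The 17 strong regions of these genes made up 5.76% of the 295 regions of fold at least 5 in the wild-type line list, and the 10 in the mutant line list made up 2.67% of 375. Next to the threshold lay an Alkbh5 region of fold 4.81 and a Mettl3 region of fold 5.04, both in the mutant line list.

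**Figure D1:**
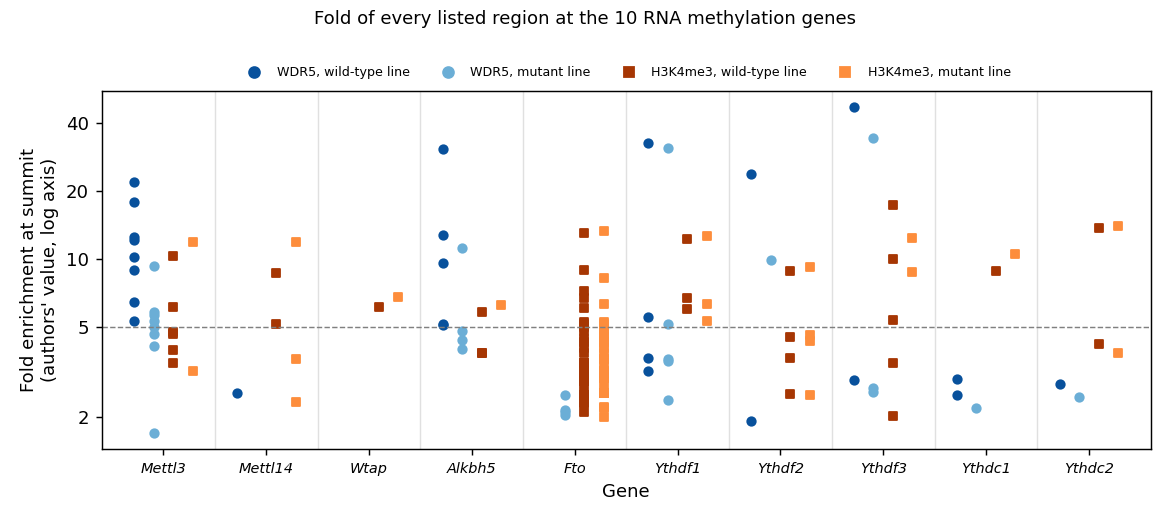
Fold enrichment at the summit (authors' value, log axis) of every listed region at the 10 genes, one point per region, with circles for WDR5 and squares for H3K4me3 in each line; the dashed line marks a fold of 5. WDR5 points above the line are seen at Mettl3, Alkbh5, Ythdf1, Ythdf2 and Ythdf3, up to 47.2 at Ythdf3, while all 10 genes have H3K4me3 points above it.

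Promoter sequence is shown for the genes in which a WDR5 region lay within 200 bp of the start site and that start is also the annotated end of the gene. RefSeq promoter entries on GRCm38.p6 matched 7 of the 10 genes: Mettl3, Wtap, Alkbh5, Fto, Ythdf1, Ythdf2 and Ythdc1. The 250 bases upstream of the start follow, 5′ to 3′ on the gene's own strand. Capitals mark motif matches on either strand. The E-box was searched as CACGTG and the GC box as GGGCGG. The ETS motif, searched as CGGAAG, can overlap a GC box. The YY1 motif was searched as AAGATGG. The NRF1 motif was searched by its core, TGCGCA, and the TATA motif as TATAAA. The Alkbh5 sequence is chr11:60537433-60537682 on the plus strand, Ythdf1 is chr2:180920937-180921186 on the minus strand and Ythdf2 is chr4:132212257-132212506 on the minus strand.
Alkbh5: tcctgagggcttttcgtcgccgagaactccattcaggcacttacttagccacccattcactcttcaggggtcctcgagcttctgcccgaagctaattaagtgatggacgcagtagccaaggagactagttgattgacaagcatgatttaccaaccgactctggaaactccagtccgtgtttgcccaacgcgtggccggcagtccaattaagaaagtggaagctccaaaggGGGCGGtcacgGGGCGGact
Ythdf1: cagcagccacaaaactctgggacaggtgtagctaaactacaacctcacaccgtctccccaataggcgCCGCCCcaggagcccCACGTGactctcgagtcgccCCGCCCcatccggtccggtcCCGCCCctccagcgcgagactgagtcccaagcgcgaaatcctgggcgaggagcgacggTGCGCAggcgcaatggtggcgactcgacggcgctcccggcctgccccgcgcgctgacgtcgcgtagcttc
Ythdf2: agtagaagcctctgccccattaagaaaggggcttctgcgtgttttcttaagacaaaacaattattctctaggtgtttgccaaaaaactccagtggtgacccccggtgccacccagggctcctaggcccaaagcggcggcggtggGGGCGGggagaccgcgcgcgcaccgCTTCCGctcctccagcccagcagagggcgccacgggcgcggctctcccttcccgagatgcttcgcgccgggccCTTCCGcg

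The 3 sequences differ in composition, at 54.0% G+C with 14 CpG in Alkbh5, 68.4% with 30 CpG in Ythdf1 and 64.0% with 22 CpG in Ythdf2. Medians over all 32851 promoter entries were 52.4% and 6. A GC box was found in 5 of the 7 genes with an entry, and in 32.7% of all entries over the same length. Ythdf1 alone among the 7 held an E-box, the motif of the MYC family, which occurs in 6.02% of entries. It also held the NRF1 motif, found in 6.43% of entries. An ETS motif was found in Ythdf2 and Wtap and in 13.6% of entries. No YY1 or TATA match was found in the 7, against 4.49% and 12.4% of entries. These matches are letters in a window and say nothing of binding.

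Mettl3, the catalytic subunit of the writer complex, held the most strong WDR5 regions. The gene lies on chromosome 14 from 52294841 to 52308741, on the minus strand. Its 8 regions in the wild-type line list had folds from 5.35 to 21.95, with a median of 11.2, and the 8 in the mutant line list had folds from 1.70 to 9.36, with a median of 5.20. All 8 places were listed in both lines. Fold was at least 5 at 8 of them in the wild-type line and at 5 in the mutant line.

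The Mettl3 regions formed a row of short blocks. Of the 8, 7 lay in the part of the gene farther from its start, and 1 lay at the start itself, 36 bp (wild-type line) and 20 bp (mutant line) from the RefSeq start at 52305124. Gaps between neighbouring blocks ran from 166 to 4443 bp in the wild-type line list and the blocks were 203 to 693 bp wide. The strongest block in both lists was also the widest. It ran from 52299699 to 52300391 in the wild-type line (fold 21.95, −log10 q 106) and from 52299699 to 52300372 in the mutant line (fold 9.36, −log10 q 31.8), with the same first base. No H3K4me3 region overlapped it in either line.

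H3K4me3 regions were listed over several of the other Mettl3 blocks, and the source of their reads was not tested. In the wild-type line the regions at 52296077, 52296621, 52297422, 52297873 and 52298644 had H3K4me3 folds of 3.99, 4.68, 4.77, 6.19 and 3.46, each over a WDR5 block. In the mutant line only the region at 52297474 was listed there, with a fold of 3.20. The H3K4me3 region over the start was wider, 1501 bp with a fold of 10.3 in the wild-type line and 1385 bp with a fold of 11.9 in the mutant line. The block nearest the far end, from 52294898 to 52295134 in the wild-type line, also lies in Tox4, a neighbouring gene that runs from 52279146 to 52295509, so it cannot be assigned to either gene.

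Mettl14 and Wtap, which encode the partners of METTL3, showed none of this. Mettl14 (chromosome 3, 123368295 to 123385990) had 1 WDR5 region, in the wild-type line list, of fold 2.56 with a −log10 q of 0, and no region in the mutant line list. Wtap (chromosome 17, 12966799 to 12992543) had no WDR5 region in either list. H3K4me3 was present at both genes: the strongest regions had folds of 8.69 and 11.9 at Mettl14 and 6.17 and 6.79 at Wtap, in the WT and mutant line. At Wtap that region, 2532 and 2284 bp wide, was the single one listed.

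Alkbh5, a demethylase gene on chromosome 11 from 60537683 to 60558512 on the plus strand, held 5 WDR5 regions in the wild-type line list and 4 in the mutant line list. The first lay over the start site, with folds of 5.15 and 4.41. The second was the strongest, from 60538296 to 60539197 in the wild-type line (fold 30.9) and from 60538413 to 60539311 in the mutant line (fold 11.3). It began 613 and 730 bp downstream of the start. Both of these lay inside 1 broad H3K4me3 region, 2857 bp wide with a fold of 5.84 in the wild-type line and 2631 bp with 6.25 in the mutant line.

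The remaining Alkbh5 regions were narrow and lay far inside the gene. At 60547612 the wild-type line fold was 5.19 and the mutant line fold, at 60547607, was 3.99, and both regions ended at 60547836. At 60553649 and 60553716 the folds were 12.9 and 4.81. A region from 60554189 to 60554402, of fold 9.60, was in the wild-type line list alone. The last 2 places each carried a wild-type line H3K4me3 region of fold 3.85, 151 and 167 bp wide, and none in the mutant line. Alkbh5 thus had WDR5 regions of fold at least 5 at 5 places in the wild-type line and at 1 in the mutant line.

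Fto, the other demethylase gene, stood apart from Alkbh5. It spans 355067 bp on chromosome 8 from 91313367 to 91668433. The wild-type line WDR5 list had no region there, and the mutant line list had 4, with folds from 2.04 to 2.52 and none with a −log10 q of at least 2. H3K4me3 regions were scattered along the gene, 38 in the wild-type line and 29 in the mutant line. The strongest, over the start, had folds of 13.1 and 13.4. In both lines it also overlaps Rpgrip1l, a neighbouring gene that runs from 91217030 to 91313291, so it cannot be assigned to either gene.

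The cytoplasmic reader genes Ythdf1, Ythdf2 and Ythdf3 shared a different form, 1 wide and strong WDR5 region inside each gene. Ythdf3 (chromosome 3, 16183148 to 16217037) had the highest fold of the family. Its region ran from 16203717 to 16205546 in the wild-type line, with a fold of 47.2 and a −log10 q of 429, and from 16203717 to 16205506 in the mutant line, with a fold of 34.4 and a −log10 q of 233. The first base was the same in both and the summits, at 16205067 and 16205065, were 2 bp apart.

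H3K4me3 regions were listed within the wide Ythdf3 region as well. Whether their reads came from the chromosomal gene or from a copy of its transcript was not tested. In the wild-type line 3 H3K4me3 regions lay within it. They had folds of 5.37, 2.03 and 17.5, and the first began at the same base as the WDR5 region, 16203717. The last of these had its summit at 16205068, 1 base from the wild-type line WDR5 summit, and its fold exceeded the 10.1 of the region over the gene's lower-coordinate end. In the mutant line a single H3K4me3 region of fold 8.76, from 16204485 to 16205436, lay within the WDR5 region, below the 12.5 at the lower-coordinate end.

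Ythdf1 (chromosome 2, 180904377 to 180920936, minus strand) had its wide region from 180910606 to 180912208 in the wild-type line (fold 32.7) and from 180910426 to 180912208 in the mutant line (fold 31.2). The last base was shared and the summits, at 180910836 and 180910835, differed by 1 bp. H3K4me3 regions of fold 6.74 and 6.38 lay over it, both starting at 180910686. A further region at 180919066, the same first base in both lines, had folds of 5.57 and 5.20 and no H3K4me3. Nearer the start, 109 and 94 bp away, the WDR5 folds were 3.67 and 3.55, within the H3K4me3 region that had the highest folds of this gene, 12.4 and 12.7.

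Ythdf2 (chromosome 4, 132184916 to 132212256, minus strand) had its wide region from 132204149 to 132205716 in the wild-type line, with a fold of 23.9, and from 132204141 to 132205705 in the mutant line, with a fold of 9.90. H3K4me3 folds over it were 4.52 and 4.35. Over the start site only the wild-type line list had a WDR5 region, of fold 1.92 with a −log10 q of 0. The 3 wide regions were of similar width, 1603, 1568 and 1830 bp in the wild-type line and 1783, 1565 and 1790 bp in the mutant line for Ythdf1, Ythdf2 and Ythdf3.

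**Figure D2:**
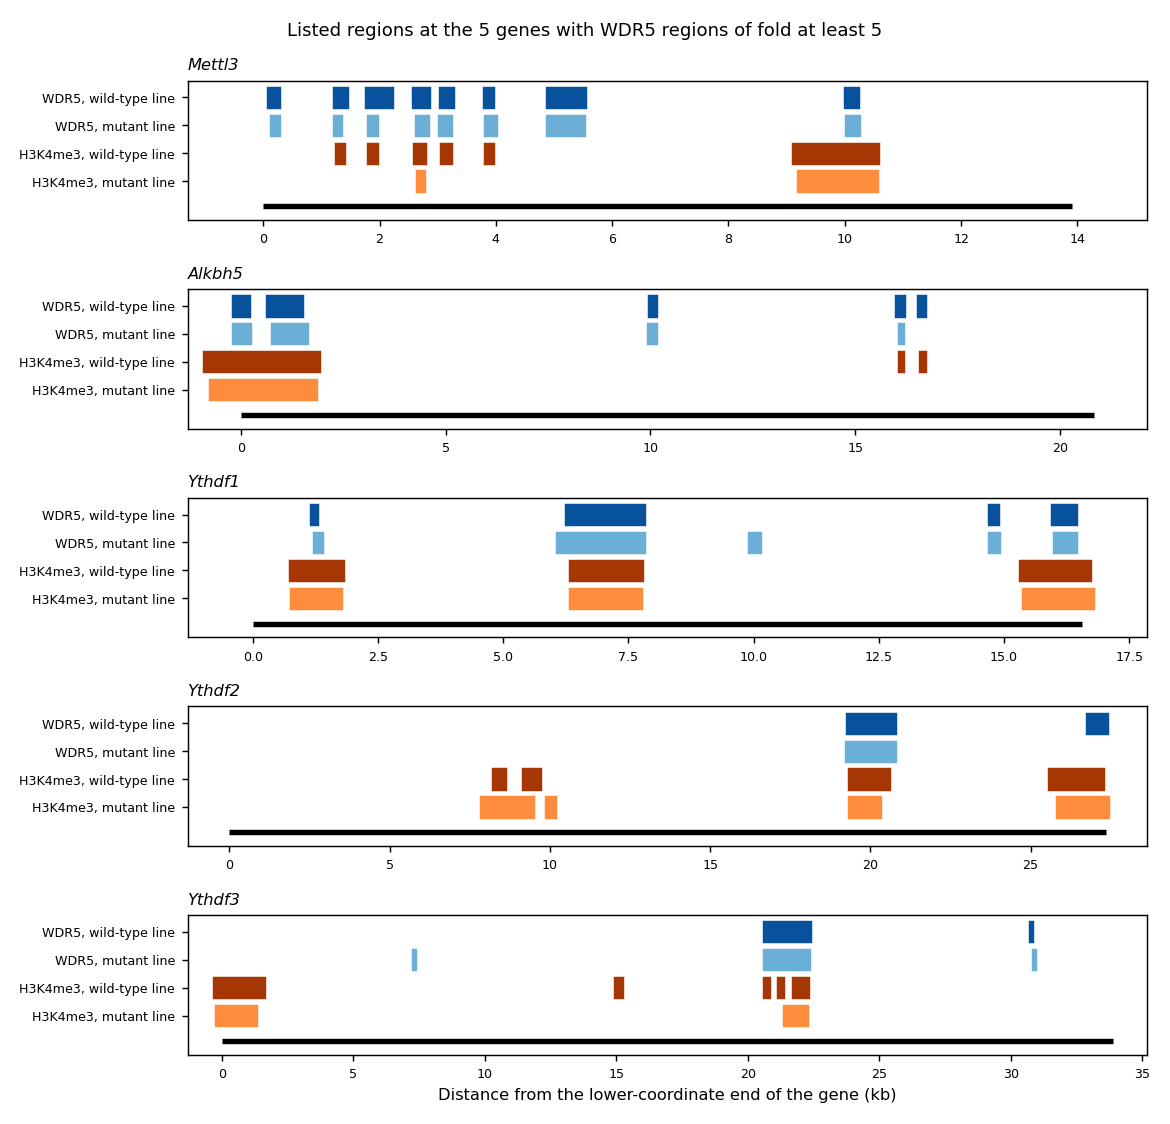
Listed WDR5 and H3K4me3 regions (coloured blocks, one lane per list) along Mettl3, Alkbh5, Ythdf1, Ythdf2 and Ythdf3, plotted by distance in kb from the lower-coordinate end of the gene (black bar). The 8 short WDR5 blocks at Mettl3 and the wide block inside each Ythdf gene, with H3K4me3 blocks under it, are seen in both lines, while Alkbh5, Ythdf1, Ythdf2 and Ythdf3 each also have a WDR5 block in 1 line alone.

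Among wide WDR5 regions Ythdf1, Ythdf2 and Ythdf3 led the wild-type line list, and Ythdf1 and Ythdf3 the mutant line list. This is a description only, since the folds helped to choose the family. Of 84 regions at least 1000 bp wide in the wild-type line list, those of Ythdf3, Ythdf1 and Ythdf2 had the highest folds, in that order, and the next, at no member, had 18.2. Of 129 in the mutant line list Ythdf3 and Ythdf1 again had the highest, the next outside the family had 17.8, and Ythdf2 was in place 50. A wide region of fold at least 5 was found at 0.324% of protein-coding genes in the wild-type line and at 0.466% in the mutant line, and at 3 of the 10 members in each.

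**Figure D3:**
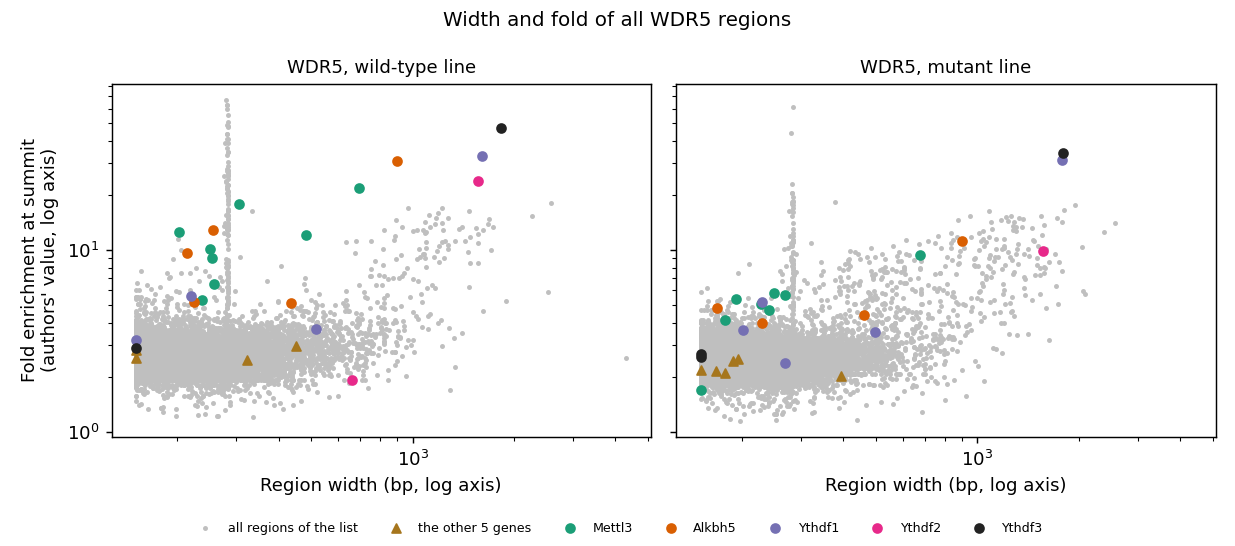
Width (bp, log axis) against fold (authors' value, log axis) of all WDR5 regions, one panel per line; grey points are the whole list (11095 and 26888 regions), coloured points the members. Ythdf3 and Ythdf1 lie above all other regions of 1000 bp or more in both panels, and the narrow grey column is a set of regions 270 to 290 bp wide.

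The reader genes Ythdc1 and Ythdc2 had only weak WDR5 regions. Ythdc1 (chromosome 5, 86803980 to 86836659) had 2 in the wild-type line, the stronger near the start with a fold of 2.96, and 1 in the mutant line, of fold 2.19 at another place. Ythdc2 (chromosome 18, 44827730 to 44889720) had 1 in each, of fold 2.81 and 2.46, more than 1 kb apart. None of these had a −log10 q of at least 2. Both genes had H3K4me3 at their lower-coordinate end, with folds of 8.91 and 10.6 at Ythdc1 and 13.8 and 14.0 at Ythdc2.

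**Figure D4:**
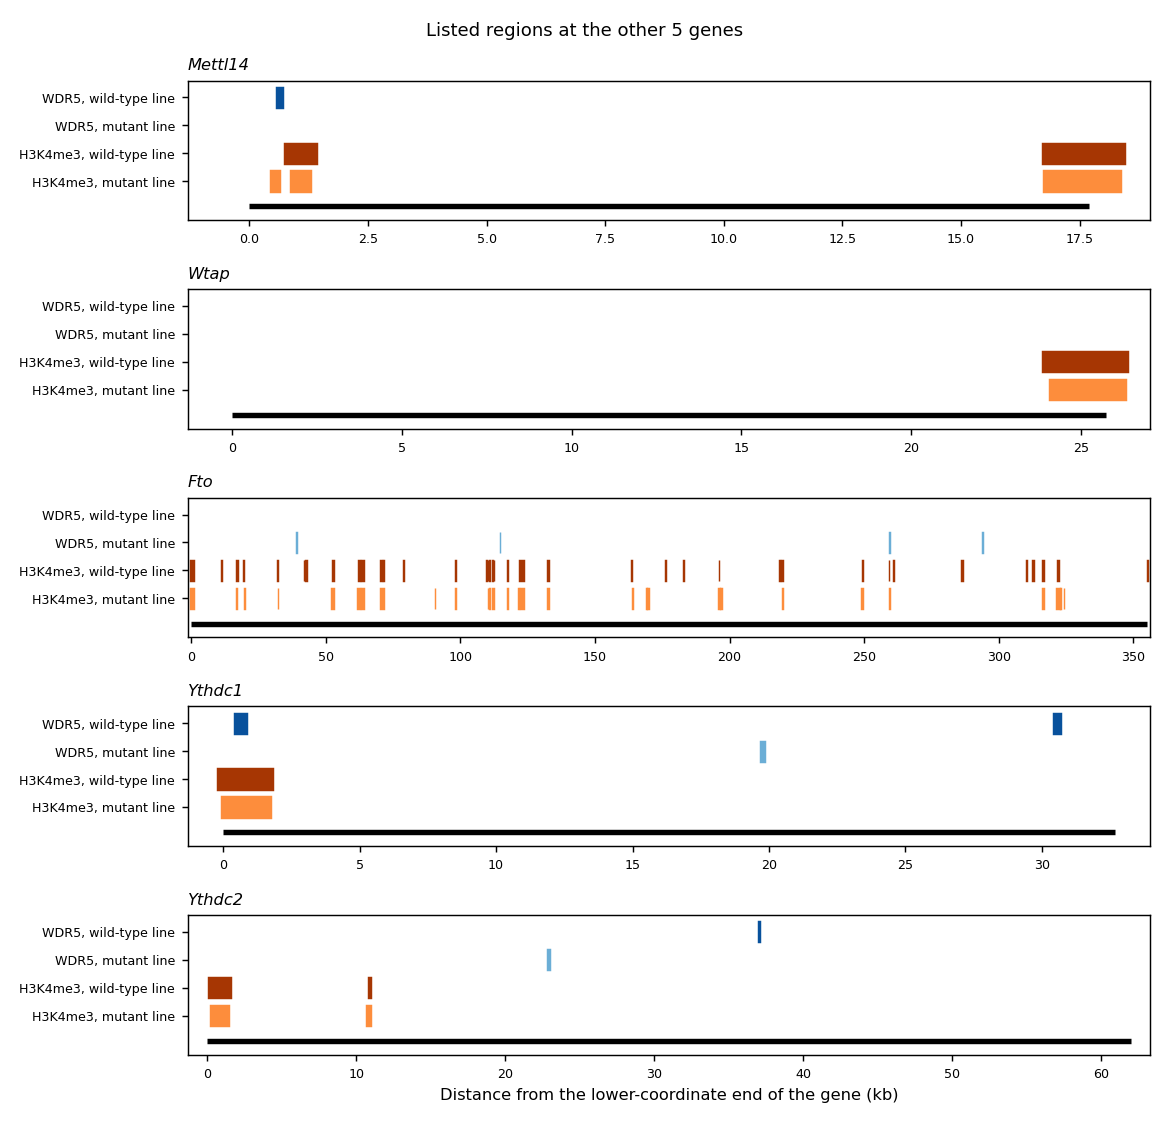
Listed regions (coloured blocks, one lane per list) along Mettl14, Wtap, Fto, Ythdc1 and Ythdc2, by distance in kb from the lower-coordinate end of the gene (black bar). WDR5 blocks are few, narrow and at different places in the lines, 4 in the mutant line lane of Fto and 0 at Wtap, while an H3K4me3 block stands at or near a gene end in both lines at every gene.

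H3K4me3 was listed at all 10 genes in both lines, where 76.4% and 75.9% of protein-coding genes had a region. All 10 also had one of fold at least 5, against 70.6% and 69.1%. Over the members the median of each gene's highest H3K4me3 fold was 9.63 in the wild-type line and 11.9 in the mutant line, beside 10.6 and 10.5 over all protein-coding genes with a region. For WDR5 the medians over the 8 members with a region were 22.9 and 9.63, beside 2.76 and 2.60. The WDR5 folds helped to choose the genes, and these medians hide a split. Mettl14, Ythdc1 and Ythdc2 had 2.56, 2.96 and 2.81 in the wild-type line. Fto, Ythdc1 and Ythdc2 had 2.52, 2.19 and 2.46 in the mutant line. The other 5 had at least 21.95 and 9.36. The main H3K4me3 region of a gene, the one with the highest −log10 p, was 1438 to 2857 bp wide in the wild-type line and 1305 to 2631 bp in the mutant line.

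Most strong WDR5 regions of the family lay away from that main H3K4me3 region: 14 of 17 in the wild-type line and 8 of 10 in the mutant line. This was not counted for strong regions at other genes, so it is not shown to be particular to the family. By distance, 13 of 17 and 9 of 10 were more than 1 kb from either end of any annotated gene. The counts by distance take in the Mettl3 block at its RefSeq start, because the annotated gene reaches on to 52308741. In the whole lists this held for 61.7% and 30.9% of regions of fold at least 5, and for 45.2% and 17.8% once regions 270 to 290 bp wide were set aside. No transfer RNA gene lay within 200 bp of any of the family's 27 strong regions. No such count is given for the whole lists, so whether this sets the family apart is not shown. An H3K4me3 region of the same line overlapped 13 of 17 (76.5%) and 6 of 10 (60.0%) of the family's strong regions. This was so for 79.3% and 88.5% of all regions of that fold. For regions of any fold the family's shares were the higher ones, 17 of 25 (68.0%) and 10 of 27 (37.0%), beside 46.0% and 12.3% of the whole lists. Those shares are over unlike mixes of folds. A fold of at least 5 was held by 17 of 25 and 10 of 27 family regions, but by 295 of 11095 and 375 of 26888 in the lists.

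Between the lines, 19 of 25 wild-type line WDR5 regions of the family were overlapped by a mutant line region, and 19 of 27 in the other direction. In the whole lists 11095 and 26888 regions gave 1393 overlapping pairs. For wild-type line regions of fold at least 5 the family was close to the whole list, with 16 pairs for 17 regions beside 257 pairs for 295. Both edges matched within 50 bp in 11 of the 19 pairs (57.9%), and the summits in 15 (78.9%). Over all 1393 overlapping pairs in the genome these shares were 22.2% and 46.7%, and for the 257 pairs with a wild-type line fold of at least 5 they were 44.0% and 82.1%. Among the 16 such pairs of the family, edges matched in 10 and summits in 13. Over all member regions of the 4 lists, 120 of 330 edges (36.4%) lay within 50 bp of the same kind of edge at that gene in another list, and 21 on exactly the same base. The count was 59 of 104 (56.7%) for edges of member WDR5 regions and 44 of 54 (81.5%) for those of fold at least 5. The same shares were not computed for the whole lists.

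In these pairs the mutant line fold was the lower one in 18 of 19, and in 58.1% of all pairs. Of those with a wild-type line fold of at least 5 it was lower in 16 of 16 family pairs and in 78.2% of all. Choosing pairs by the wild-type line fold favours that direction. The folds also helped to choose the family, so the 18 of 19 is a description and not a separate result. A wild-type line fold of at least 5 was held by 16 of the 19 family pairs, but by 257 of all 1393. Several family pairs lie in the same gene and are not replicates. The folds were set separately in each list and at an unknown depth. Among the 19 family pairs the exception was the Ythdf1 region at 180905520, with 3.22 in the wild-type line and 3.64 in the mutant line. The pair of values was closest at the wide Ythdf1 region, 32.7 and 31.2, among the 3 wide regions.

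Whole-genome counts of strong regions per gene were led by members. The folds helped to choose these genes, so their place in this order is a description and not a separate result. Of 21887 protein-coding genes, 4 (0.0183%) had 2 or more WDR5 regions of fold at least 5 in the wild-type line: Mettl3 with 8, Alkbh5 with 5, Ythdf1 with 2, and Tox4 with 2, which are the Mettl3 blocks nearest to it. In the mutant line 5 genes (0.0228%) did, Mettl3 with 5 and Ythdf1, Ybx3, Btn1a1 and Fcgr3 with 2 each. By the sum over both lists the order was Mettl3 with 13, Alkbh5 with 6, Ythdf1 with 4 and Ybx3, a cold-shock protein gene, with 3. A further 136 genes tied at 2, Ythdf2 and Ythdf3 among them. Ordered by highest fold, the first 6 of the tied genes were Hdac8, Ube2e2, Arl15, Adgrb3, Cdh20 and Pnpla5, and at each of these the strongest region was 280 to 283 bp wide.

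Among other genes of RNA modification, such regions were found at 1. A list of 34 held further writer subunits (such as Virma, Rbm15 and Zc3h13), demethylases of other RNAs, reader proteins and methyltransferases of transfer and ribosomal RNA. A WDR5 region was listed at 19 of them in the wild-type line and 13 in the mutant line, where 26.8% and 30.7% of protein-coding genes had one. In each line 1 gene, Prrc2a, had a fold of at least 5, where 0.882% and 1.01% of protein-coding genes did. Prrc2a, which encodes a large protein that binds methylated RNA, had 1 region of fold 9.48 from 35164086 to 35165159 on chromosome 17 in the wild-type line and 1 of fold 14.6 from 35164185 to 35165062 in the mutant line. The Prrc2a region overlapped the strongest H3K4me3 region of the gene in both lines. All 34 had H3K4me3 in both lines, where 76.4% and 75.9% of protein-coding genes had a region.

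Wdr5 itself, the gene deleted and supplied again in these cells, had WDR5 regions of fold 2.35 and 1.57 in the wild-type line and 1.80 in the mutant line. These were weak, with −log10 q of 0, 0 and 0.62, and the mutant line region overlapped neither of the others. The lists hold no reads and no exon positions were used here, so the region edges were not compared with exon edges. Whether the reads at the strong regions came from the chromosomal genes or from a copy of their transcripts was not tested.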

How the data were processed

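WDR5 and H3K4me3 ChIP-seq peak lists of 2 rescue lines were analysed, 1 library each, after 10 minutes of crosslinking in 1% formaldehyde per the labels' protocols. Per the submitters' processing notes the authors' tools were MACS2 2.1.2, Picard, SAMtools and BWA 0.7.17-r1188, the build was mm10, and the settings and control are not given in the sources used here. The deposited lists give each peak a fold enrichment (a ratio at the summit), a −log10 p and a −log10 q, all the authors' values. The smallest deposited −log10 p was 2.00. Read depth is unknown, and the number and width of peaks depend on it. The input libraries were not analysed here.

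Genes came from RefSeq on GRCm38.p6, which shares its coordinates with mm10, without mitochondrial genes. A peak belonged to a gene when it overlapped the gene or 1 kb around it by at least 1 bp. No peaks of a list overlapped each other. Start sites, strands and sequences came from the RefSeq promoter entries. Counts were made with Python 3.11.15, numpy 2.4.6 and pandas 2.3.3, plots with matplotlib 3.10.9, and the counting of regions per gene was tested on simulated data. No test between lines was made. The members and gene lists were chosen with earlier results of these data known. Named beside the 10 members are the genes of a list of 34 with a fold of at least 5, the first 10 genes by number of such WDR5 regions in both lists summed, with ties ordered by highest fold, and Wdr5. Virma, Rbm15 and Zc3h13 are named only as examples of that list of 34. Nanog, Sox2 and Zfp42 are named only as embryonic stem cell genes. Tox4, Rpgrip1l, Btn1a1 and Fcgr3 were named after their values were seen. Alternatives were a −log10 q of at least 2, other windows and folds, lists of equal length, 50% reciprocal overlap and other edge tolerances. Removing regions 270 to 290 bp wide was added after seeing the data.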

Additional observations from a re-analysis of the deposited data

How the results depend on the processing

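Of 38 alternatives over these counts, 33 stayed within 1.5 times the value reported and 5 did not. With a −log10 q of at least 2, members with a WDR5 region numbered 5 in the wild-type line and 5 in the mutant line in place of 8 and 8, and those are the 5 genes with strong regions. With a fold of at least 10, members with a strong WDR5 region numbered 3 in the mutant line (Alkbh5, Ythdf1 and Ythdf3, while Mettl3 and Ythdf2 stood at 9.36 and 9.90) and 5 in the wild-type line. With a reciprocal overlap of 50%, the member WDR5 regions overlapped by H3K4me3 of the same line numbered 8 in place of 17 in the wild-type line and 4 in place of 10 in the mutant line; the cause was not tested. Windows, equal list lengths and removal of regions 270 to 290 bp wide left the counts of members within that range, with 6 in place of 8 for the mutant line at equal length. The comparison with exon edges was not run, because exon positions were not used here. No paired analysis was possible because each group holds 1 library and no test was made.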
